A study of Homo sapiens with 6 samples.

Results

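The genes described here code for the proteasome and the factors that assemble it. The rule takes them by gene name and uses no measured value, although the list was drawn up with earlier results of these data known. The 43 genes comprise 7 alpha and 7 beta subunits of the 20S core, 6 ATPase and 12 non-ATPase subunits of the 19S cap, 5 genes of the other activators and the inhibitor PI31, and 6 assembly chaperones. They are 43 of the 58288 gene identifiers in the count table, and all 43 were among the 14415 genes that passed the filter on low counts. The 6 libraries came from T24 cells, a human bladder cancer line, as 2 biological replicates each of cells given a control siRNA (NC), si-circ235-1 or si-circ235-2. The labels call these siControl, siRNA1 and siRNA2, and the siRNAs were matched to the names in the study by their numbers. Both siRNAs were designed against the looping site of circ235, a circular RNA from the CCNY gene, in a study of tumour cell growth and glycolysis. Messenger RNA was enriched with oligo dT beads, which do not retain circular RNA. Circ235 itself therefore has no value here, and its knockdown could not be checked in these libraries. The study measured knockdown by qRT-PCR and kept the siRNA that was more efficient in both of its cell lines for follow-up experiments. That siRNA is si-circ235-1, and si-circ235-2 had the weaker knockdown. Whether the strength of knockdown relates to the changes below was not tested.

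The proteasome degrades proteins that carry ubiquitin chains. Its 20S core is a barrel of alpha rings, which form the gate, and beta rings, which hold the proteolytic sites, and the 19S cap recognises, unfolds and feeds in the substrate. Other activators (PA28 and PA200) can replace the cap, and dedicated chaperones build the rings and the base of the cap. When proteasome capacity is short, the transcription factor NFE2L1, cut to its active form by the protease DDI2, binds antioxidant response elements together with a small MAF protein and raises the transcription of proteasome genes.

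The core of that element, TGACNNNGC, was searched on both strands in the window from 250 bases before to 50 bases after each gene start in RefSeq's promoter table (GRCh38.p14). The table had an entry for 37 of the 43 genes, and 14 of these, 37.8%, held the core, against 16.1% of the 27305 genes in the table. The CCAAT box (ATTGG on the other strand) was found in 18 of the 37 genes, 48.6% against 39.7% of all genes, and the letters CCGGAAG, a core bound by ETS factors, in 14, 37.8% against 12.2%. A match is a description of letters and not a bound site. The sequences below are written 5′ to 3′ on the strand of the gene, with the match in capitals, for 3 genes whose expression was lower and 2 whose expression was higher with si-circ235-2 in the comparisons that follow. In PSMA4, PSMB3 and PSMD5 the core reads forward, and in PSMC5 and PSME4 it reads as its reverse complement, GCNNNGTCA.
PSMA4, an alpha subunit, chr15:78540650-78540678, plus strand, first base at -126 from the start: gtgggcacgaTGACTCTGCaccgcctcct
PSMB3, a beta subunit, chr17:38752627-38752655, plus strand, first base at -104: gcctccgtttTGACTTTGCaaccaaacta
PSMC5, a 19S ATPase, chr17:63827654-63827682, plus strand, first base at -57: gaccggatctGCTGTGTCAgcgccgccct
PSME4, the PA200 activator, chr2:53971009-53971037, minus strand, first base at -34: cccggcggctGCAGCGTCAccagcagagc
PSMD5, a chaperone of the 19S base, chr9:120843038-120843066, minus strand, first base at -134: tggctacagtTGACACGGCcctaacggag

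The libraries held 15373992 to 19912893 counts. Values below are CPM, the counts of a gene relative to the library total, scaled with TMM factors of 0.89 to 1.19, and the si-circ235-2 libraries had the highest factors, 1.10 and 1.19. Replicates differed by more than sampling noise (chi-square per degree of freedom 21.7 to 33.3). The cells expressed the keratins KRT7, KRT8 and KRT18 at 618 to 2300 CPM, while the epithelial markers CDH1, KRT19, UPK2, UPK3A and TP63 were at or near 0 and failed the filter, and EPCAM and GATA3 passed it at 0.0655 to 2.93 CPM. Of the 6 markers of immune, endothelial and muscle cells, PTPRC, CD3E, LYZ and MYH11 had 0 counts in all 6 libraries, and PECAM1 and DES reached at most 0.393 and 0.0955 CPM. In bulk RNA, fewer cells with a transcript and less transcript per cell cannot be told apart.

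The genes of the proteasome made up 0.87% and 0.818% of all counts in the NC libraries, 0.991% and 1.06% with si-circ235-1, and 0.716% and 0.652% with si-circ235-2. The 3 conditions did not overlap, and si-circ235-1 lay above NC while si-circ235-2 lay below it. The beta ring followed the same order, at 3033.5 and 2173.4 CPM in NC, 3264.4 and 3973.6 CPM with si-circ235-1 and 1535.6 and 1209.3 CPM with si-circ235-2, each value a sum over its 7 genes. The non-ATPase subunits of the cap were closer together, at 2336.6 and 2100.9 CPM in NC, 2625.1 and 2380.4 CPM with si-circ235-1, and 1975.7 and 1700.6 CPM with si-circ235-2. Counted per kilobase of the longest transcript (RPKM), levels in NC ran from 0.246 for PSMA6 to 731 for PSMA7, the next being PSMB3 at 593 and PSMB7 at 576. Several low values stood beside an overlapping annotation. The genes PSMA2, PSMA1 and PSMA6 had 100%, 91% and 89.7% of their coding bases under a same-strand exon of another gene in the annotation, and they held 12 to 745 counts per library against 324 to 20065 for the other 40 genes.

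**Figure D1:**
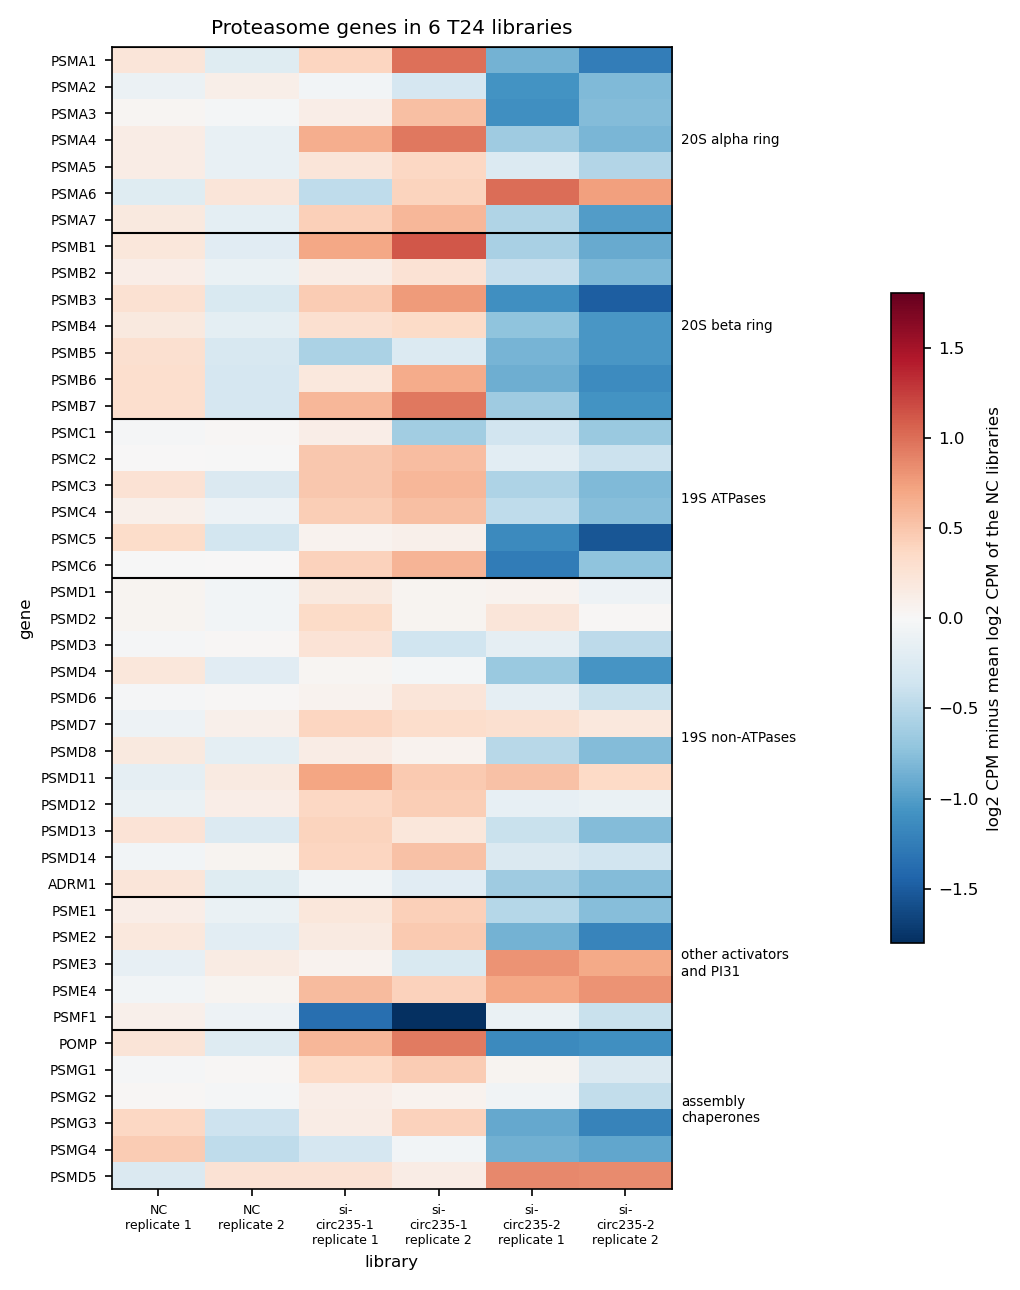
Heat map of the 43 proteasome genes (rows, grouped by role) in the 6 libraries (columns). Colour is the log2 CPM minus the mean log2 CPM of the 2 NC libraries, from blue (lower) to red (higher). Most core and ATPase genes are blue in both si-circ235-2 libraries and pale to red in the si-circ235-1 libraries, while PSMF1 is blue with si-circ235-1 and PSME3, PSME4 and PSMD5 are red with si-circ235-2.

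With si-circ235-1, most proteasome genes lay somewhat above NC and few passed the test, while PSMF1 fell. PSMF1 codes for PI31, which inhibits the 20S core in vitro and takes part in proteasome transport and assembly. Its gene lies at chr20:1113263-1189415 on GRCh38. PSMF1 was at 211 and 185 CPM in NC and at 77.4 and 56.9 CPM with si-circ235-1, and with si-circ235-2 it was at 181 and 150 CPM. Both si-circ235-1 libraries were far below the other 4. The change was 2.96-fold lower, a log2 fold change of -1.56 with a standard error of 0.21 (adjusted p = 0.0073, edgeR's quasi-likelihood F test, Benjamini-Hochberg over all 14415 genes, n = 2 per condition). Standard errors here and below are the fitted log2 fold change divided by the square root of its F statistic, and a gene was called where its adjusted p was under 0.05.

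In all, 3 of the 43 genes were called, which is 6.98% against 5.88% of all genes tested in that comparison. Of these, 2 were called higher (4.65% against 2.24% of all genes) and 1 lower (2.33% against 3.64%). The share called was thus near the background. PSMB1, a beta subunit without a proteolytic site of its own, was at 286 and 215 CPM in NC and at 403 and 539 CPM with si-circ235-1 (log2 fold change 0.91 ± 0.23 SE, adjusted p = 0.0442 by edgeR). PSMA4, an alpha subunit, was at 253 and 212 CPM in NC and at 363 and 447 CPM with si-circ235-1 (0.80 ± 0.20 SE, adjusted p = 0.0428 by edgeR). Both si-circ235-1 libraries exceeded both NC libraries for each of these genes. The median log2 fold change of the 43 genes was 0.31, beside -0.03 over all genes tested, and 34 of them had a positive sign. For 25 genes both si-circ235-1 libraries lay above both NC libraries, and for 1 gene, PSMF1, both lay below, where the shares over all genes were 26.2% and 28.8%. At an unadjusted p under 0.05, 16 of the 43 genes passed, 15 of them higher, where 3644 of all 14415 genes passed, 1593 of them higher. DESeq2 called 7, of which 6 were higher, where it called 1448 of all genes, 669 of them higher. Without either NC library, or without the first si-circ235-1 library, PSMF1 alone remained called, and without the second si-circ235-1 library edgeR called 0 genes in the whole table. The log2 fold change of PSMF1 stayed between -1.81 and -1.36 over all alternatives.

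**Figure D2:**
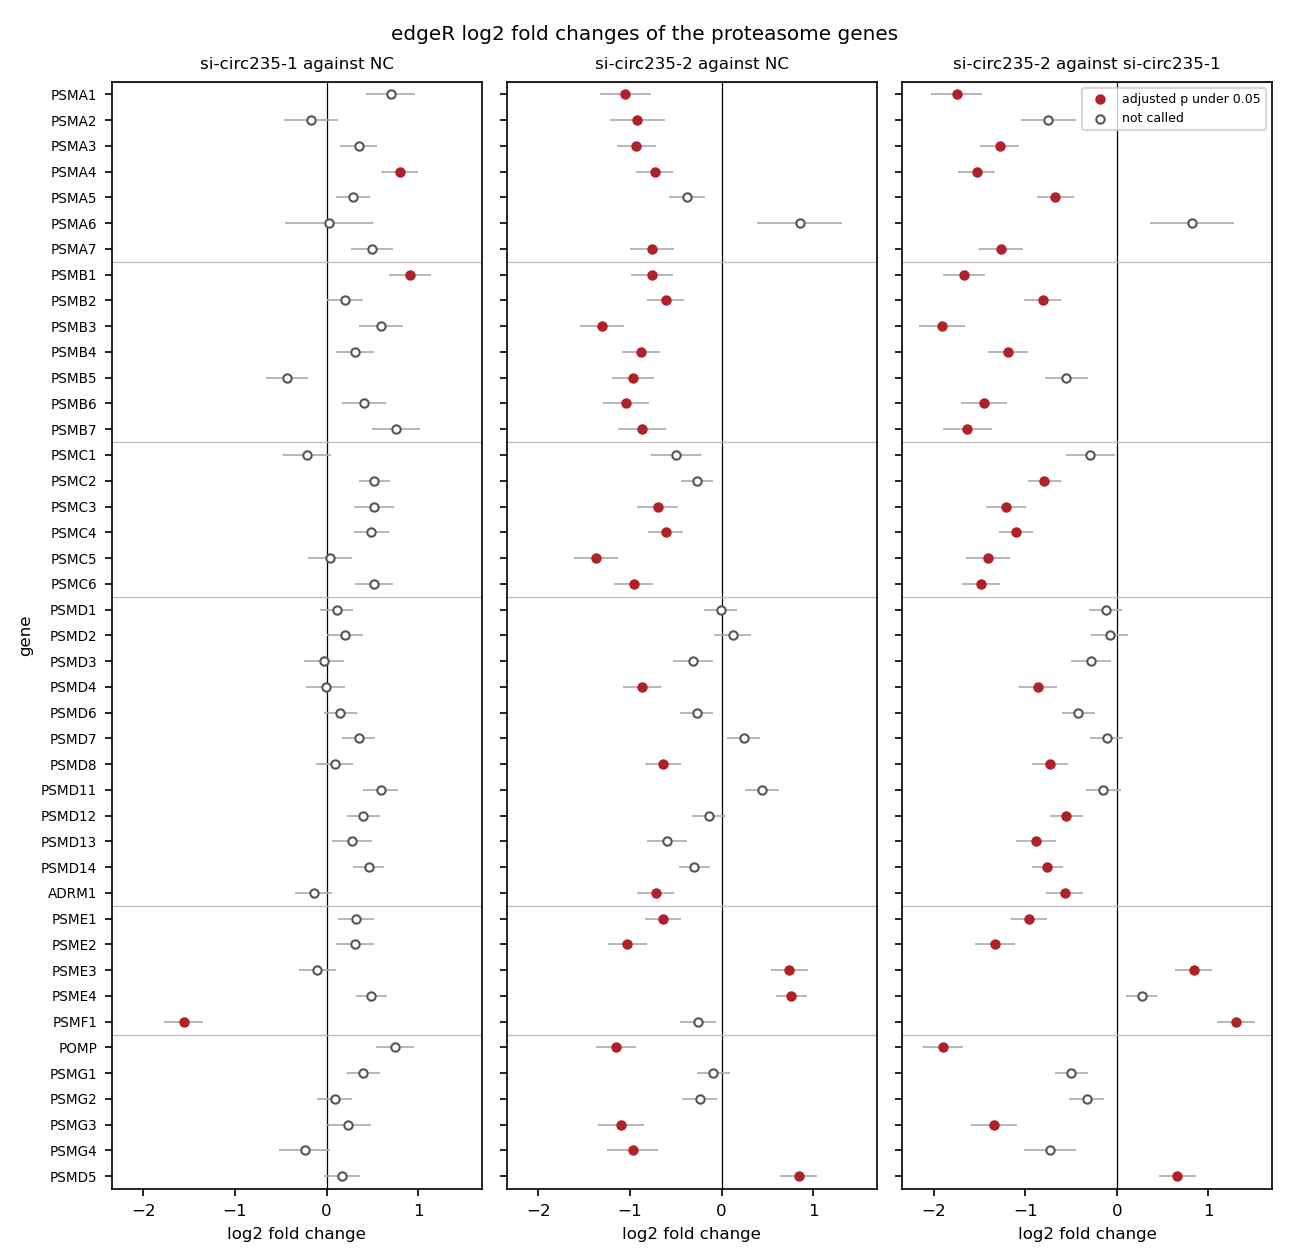
Log2 fold change (horizontal axis) of each of the 43 genes (vertical axis, in the order of the heat map) in the 3 comparisons from edgeR. Bars are 1 standard error, filled points are called and open points are not. In the left panel only PSMA4, PSMB1 and PSMF1 are filled, while in the middle and right panels the filled points of the core and ATPase genes lie left of 0.

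With si-circ235-2, transcripts of the core particle were lower: the genes of all 7 beta subunits and of 5 of 7 alpha subunits were called lower than NC. Of the 43 genes, 27 were called, 3 higher and 24 lower, or 62.8% against 31.4% of all genes, with 55.8% called lower and 6.98% higher, where the share over all genes was 15.7% in each direction. The median log2 fold change was -0.64, while that of all genes tested was 0. For 33 genes both si-circ235-2 libraries lay below both NC libraries and for 6 above, where the shares over all genes were 35% and 36.4%. Both comparisons with NC use the same 2 NC libraries. With library totals alone, without TMM factors, 16 of the genes were called, 4 higher and 12 lower, the median of all genes tested stood at 0.25 and that of the proteasome genes at -0.38, and calls over all genes split into 3173 higher and 1294 lower in place of 2270 and 2260. No proteasome gene called with TMM factors changed its direction without them. Of the 5 epithelial markers tested, 4 had a negative log2 fold change with si-circ235-2 and KRT7 was called lower (-0.76, adjusted p = 0.026 by edgeR), with a median of -0.74, and their part in the result was not tested.

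The 3 proteolytic subunits sit in the beta ring. PSMB5, the chymotrypsin-like subunit, was at 345 and 230 CPM in NC, at 190 and 238 CPM with si-circ235-1 and at 157 and 136 CPM with si-circ235-2. PSMB6, the caspase-like subunit, was at 276 and 181 CPM in NC, at 254 and 354 CPM with si-circ235-1 and at 121 and 102 CPM with si-circ235-2. PSMB7, the trypsin-like subunit, was at 680 and 448 CPM in NC, at 839 and 1070 CPM with si-circ235-1 and at 354 and 261 CPM with si-circ235-2. For each of them the si-circ235-2 libraries were the lowest of the 6, and for PSMB5 and PSMB6 the si-circ235-1 libraries overlapped with NC. The log2 fold changes against NC were -0.97 ± 0.23 for PSMB5, -1.04 ± 0.25 for PSMB6 and -0.87 ± 0.26 for PSMB7 (adjusted p = 0.0103, 0.0105 and 0.0272 by edgeR, n = 2 per condition). The largest fall in the ring was that of PSMB3, a subunit without a proteolytic site, at 544 and 373 CPM in NC, 621 and 766 CPM with si-circ235-1 and 209 and 161 CPM with si-circ235-2. This was 2.48-fold lower with si-circ235-2 than in NC (log2 fold change -1.31 ± 0.24 SE, adjusted p = 0.00419 by edgeR).

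In the alpha ring, PSMA1, PSMA2, PSMA3, PSMA4 and PSMA7 were called lower with si-circ235-2, with log2 fold changes of -1.05 to -0.73. Of these, PSMA1 and PSMA2 lie largely under a same-strand exon of another gene, as given above. They held 186 to 745 and 46 to 100 counts per library. DESeq2 did not call PSMA2 (-0.93, adjusted p = 0.0506). PSMA5 had a value of -0.38 and was not called (adjusted p = 0.155 by edgeR). PSMA6 was at 0.983 and 1.34 CPM in NC and at 2.30 and 1.91 CPM with si-circ235-2 and was not called (0.85 ± 0.46 SE, adjusted p = 0.186 by edgeR). Its 6 libraries together held 155 counts, and its processed pseudogene PSMA6P1 held 52. A same-strand exon of another gene also covers 89.7% of the coding bases of PSMA6. Reads of PSMA6 may be split between these annotations, which was not tested, and its value is uncertain.

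Transcripts of the 19S cap were uneven. Of the 6 ATPases, which unfold the substrate, PSMC3, PSMC4, PSMC5 and PSMC6 were called lower with si-circ235-2. These 4 were 66.7%, against 15.7% of all genes. PSMC1 and PSMC2 were not called (-0.50 and -0.27). PSMC1 held 329 to 474 counts per library, and 47.7% of its coding bases lie under exons of NRDE2 on the other strand. Reads without strand information cannot be told apart there, so its value is uncertain. PSMC5 had the largest fall of the 43 genes in this comparison, from 341 and 216 CPM in NC to 123 and 93.3 CPM, with 284 and 290 CPM under si-circ235-1. It was 2.58-fold lower with si-circ235-2 than in NC (log2 fold change -1.37 ± 0.24 SE, adjusted p = 0.00353 by edgeR), and its values with si-circ235-1 lay between those of the 2 NC libraries (0.04 ± 0.24, adjusted p = 0.934 by edgeR). PSMC5 (chr17:63827152-63832026) shares 874 exonic bases with FTSJ3 on the other strand, and reads without strand information cannot be told apart there.

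Of the 12 non-ATPases, 3 were called lower with si-circ235-2, or 25% against 15.7% of all genes, and none higher. Calls in either direction made up 31.4% of all genes. The 3 called lower were PSMD4 and ADRM1, both ubiquitin receptors, and PSMD8, a subunit of the lid. ADRM1 shares 244 exonic bases with LAMA5 on the other strand, where reads without strand information cannot be told apart. LAMA5 held 66569 counts in the 6 libraries together, against 9065 for ADRM1. PSMD4 was at 318 and 239 CPM in NC, at 282 and 270 CPM with si-circ235-1 and at 173 and 132 CPM with si-circ235-2 (log2 fold change against NC -0.87 ± 0.21 SE, adjusted p = 0.012 by edgeR). Its si-circ235-2 libraries were the lowest, while the si-circ235-1 and NC libraries overlapped (-0.01 ± 0.21). PSMD14, the deubiquitinase of the lid, was at 139 and 150 CPM in NC, 188 and 209 CPM with si-circ235-1 and 120 and 114 CPM with si-circ235-2. The 3 conditions did not overlap for PSMD14, and neither comparison with NC was called (0.46 ± 0.17 and -0.30 ± 0.17, adjusted p = 0.131 and 0.209 by edgeR). The scaffold subunits PSMD1 and PSMD2 had log2 fold changes of -0.01 and 0.12 with si-circ235-2, and the other 6 subunits that were not called ranged from -0.60 for PSMD13 to 0.44 for PSMD11.

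Transcripts of the alternative activators went in both directions with si-circ235-2. PSME1 and PSME2 code for the alpha and beta subunits of PA28, an interferon-inducible activator. PSME1 was at 271 and 229 CPM in NC, 288 and 335 CPM with si-circ235-1 and 175 and 146 CPM with si-circ235-2 (log2 fold change against NC -0.64 ± 0.20 SE, adjusted p = 0.0299 by edgeR). PSME2 was at 234 and 179 CPM in NC, 228 and 283 CPM with si-circ235-1 and 113 and 89.8 CPM with si-circ235-2 (-1.03 ± 0.21 SE, adjusted p = 0.00623 by edgeR). Both genes were lowest in the si-circ235-2 libraries. PSME3, the nuclear PA28 gamma, was at 132 and 163 CPM in NC, 154 and 121 CPM with si-circ235-1 and 258 and 235 CPM with si-circ235-2 (0.74 ± 0.20 SE, adjusted p = 0.0177 by edgeR). PSME4, or PA200, was at 63.9 and 68.3 CPM in NC, 97.9 and 87.8 CPM with si-circ235-1 and 107 and 116 CPM with si-circ235-2 (0.76 ± 0.17 SE, adjusted p = 0.00921 by edgeR). For PSME3 the si-circ235-2 libraries stood above the other 4, and for PSME4 both siRNAs stood above NC, where si-circ235-1 was not called (0.49 ± 0.17, adjusted p = 0.114 by edgeR). PSMF1, called with si-circ235-1, had a log2 fold change of -0.26 ± 0.20 with si-circ235-2 (adjusted p = 0.35 by edgeR).

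Of the 6 assembly chaperones, 3 were called lower with si-circ235-2 and 1 higher. These were 50% and 16.7%, where the share over all genes was 15.7% in each direction. POMP, which matures the assembling core and is degraded as its first substrate, was at 242 and 176 CPM in NC, 311 and 394 CPM with si-circ235-1 and 93.2 and 95.6 CPM with si-circ235-2. The 3 conditions did not overlap. With si-circ235-2 it was 2.21-fold lower than in NC (log2 fold change -1.15 ± 0.22 SE, adjusted p = 0.00424 by edgeR), and with si-circ235-1 its value was 0.75 ± 0.21 (adjusted p = 0.0616 by edgeR). PSMG3 and PSMG4, partners in one of the dimers that build the alpha ring, were called lower (-1.10 and -0.97), while PSMG1 and PSMG2, partners in the other, were not (-0.09 and -0.24). PSMD5, which holds part of the 19S base before it joins the core, was at 54.9 and 78.5 CPM in NC, 78.6 and 72.0 CPM with si-circ235-1 and 120 and 118 CPM with si-circ235-2. It was higher with si-circ235-2 than in NC (0.84 ± 0.20 SE, adjusted p = 0.0117 by edgeR), with both libraries above the other 4.

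**Figure D3:**
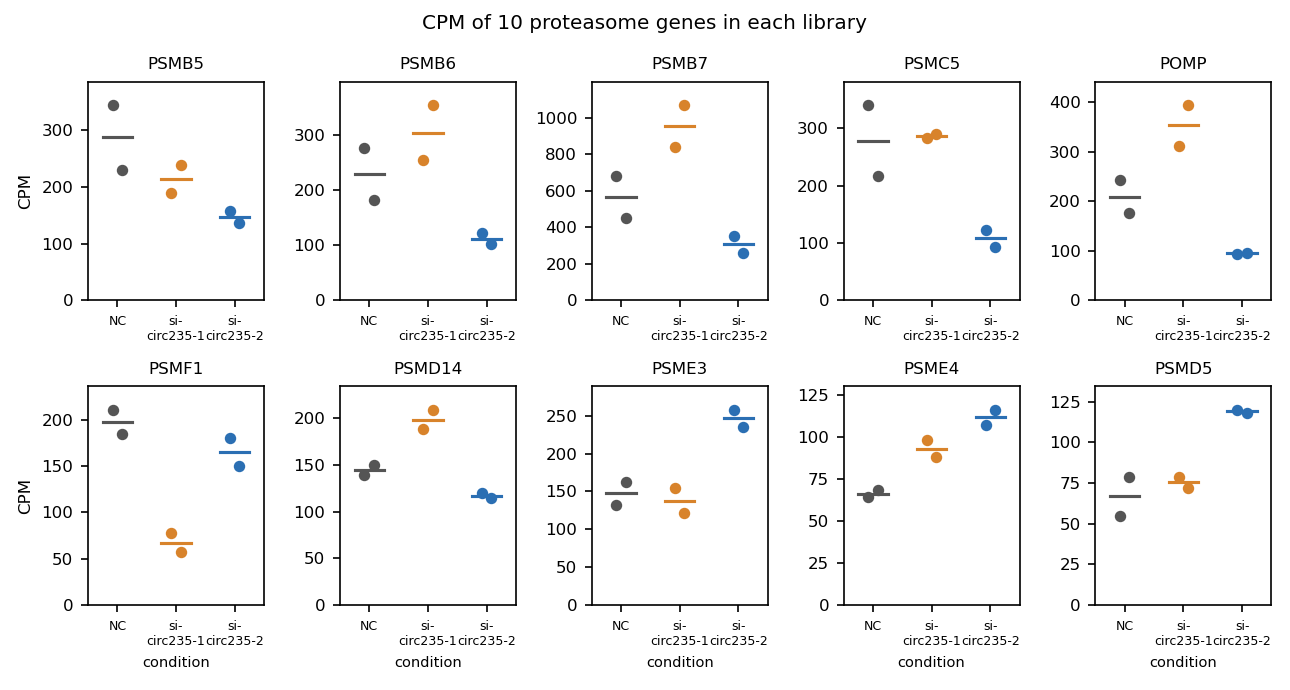
CPM (vertical axes, from 0) of 10 proteasome genes in each library, by condition. Points are libraries and lines are the means of 2 libraries. The si-circ235-2 points are the lowest for PSMB5, PSMB6, PSMB7, PSMC5, POMP and PSMD14 and the highest for PSME3, PSME4 and PSMD5, and the si-circ235-1 points are the lowest for PSMF1.

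The number of genes called with si-circ235-2 against NC depended on single libraries. Without the first NC library, 2 of the 43 genes, PSMC5 and POMP, remained called, and calls over all genes tested dropped from 4530 to 769. Without the second si-circ235-2 library 13 of the 43 genes and 3264 of all genes were called. The median of the 43 genes lay between -0.79 and -0.49 when any 1 library was left out.

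The siRNAs were also compared with each other, where the NC libraries enter the estimate of the spread but not the difference. With si-circ235-2 against si-circ235-1, 29 of the 43 genes were called, 3 higher and 26 lower, or 67.4% against 39.7% of all genes, with 60.5% called lower against 18.6% of all genes and 6.98% called higher against 21.1%. The median log2 fold change was -0.76, beside 0.04 over all genes tested. For 33 genes both si-circ235-2 libraries lay below both si-circ235-1 libraries and for 5 above, where the shares over all genes were 33.7% and 38.4%. The largest falls were those of PSMB3 (-1.91 ± 0.25), POMP (-1.90 ± 0.22) and PSMA1 (-1.75 ± 0.28), with adjusted p-values of 0.000653, 0.000489 and 0.00126 by edgeR. PSMA1, an alpha subunit, was at 24.3 and 18.1 CPM in NC, 27.4 and 41.6 CPM with si-circ235-1 and 11.6 and 8.88 CPM with si-circ235-2, so the conditions did not overlap. PSMF1 was higher with si-circ235-2 than with si-circ235-1 by 1.30 ± 0.21 on the log2 scale (adjusted p = 0.00129 by edgeR), PSME3 by 0.84 ± 0.20 and PSMD5 by 0.66 ± 0.20 (adjusted p = 0.00749 and 0.0244 by edgeR). PSMB5 was the exception in the beta ring, with a difference of -0.55 ± 0.23 that was not called (adjusted p = 0.0793 by edgeR). PSMD14 was called lower (-0.76 ± 0.17, adjusted p = 0.00635 by edgeR), a call that was lost without TMM factors, without the second si-circ235-1 library and with length and GC content removed (-0.43, -0.69 and -0.04). When 1 library at a time was left out, 20 to 31 of the 43 genes were called, with 31 when either NC library was left out. With the 4 libraries of these conditions alone, 32 were called. Without TMM factors the median of all genes tested was 0.37, and 24 of the 43 genes were called, 4 higher and 20 lower, where calls over all genes split into 4534 higher and 1496 lower in place of 3047 and 2678.

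Transcript length moved with the result for si-circ235-2. Across the 43 genes the log2 fold change against NC and the length of the longest transcript had a Spearman correlation of 0.57, and across all genes tested 0.44, where the genes share the same 4 libraries and are not independent replicates. Proteasome transcripts are short, with a median of 2586 nucleotides against 3354 over all genes tested. All genes tested were divided by length into 5 classes of like size. In the shortest class (up to 1822 nucleotides), 32.7% were called lower with si-circ235-2 and the median was -0.60, while 15 of the 17 proteasome genes of that class were called lower and their median was -0.87. In the second class 4 of 6 proteasome genes were called lower, against 23.2% of all genes. In the fourth class (3985 to 5642 nucleotides) 4 of 11 were called lower, against 7.86% of all genes. The median of the 11 was -0.30 where that of all genes was 0.26. The 4 were PSMA2, PSMA4, PSMB2 and PSMG4, whose longest transcripts ran from 4217 to 4603 nucleotides. Their coding parts held 702, 783, 603 and 369 bases. Which transcript of each gene was expressed was not tested, so a gene's class may not match its expressed length. In the third class 1 of 8 was called lower and 2 higher, against 12.2% and 12.9% of all genes. The median of the 8 was -0.14 where that of all genes was 0.02. The single gene of the longest class was PSME4, called higher as were 35.9% of all genes there. After the libraries were each freed of a smooth trend over length and GC content, 18 of the 43 genes were called, 2 higher and 16 lower, the median was -0.33, and 15 of the 27 calls were kept. Calls over all genes went from 4530 to 3659 in that step, 1574 higher and 2085 lower. The kept calls included PSMB3 (-0.89), PSMB5 (-0.70), PSMC5 (-1.56), PSME2 (-1.11) and PSMD5 (0.71), and those lost included PSMB6 (-0.57), PSME4 (0.24) and POMP (-0.14). ADRM1, called lower without that step, then had a value of 0.14 and was not called. PSMC1 (-1.04), PSMF1 (-0.82) and PSMD13 (-0.66) were newly called lower, with adjusted p-values of 0.0101, 0.0106 and 0.0251 by edgeR. PSMF1 was thus called lower with both siRNAs in that setting. The trend was fitted on the longest transcript, which has 4448 nucleotides for PSMC1 and 4290 for PSMF1, with 1320 and 813 coding bases. Whether these transcripts are the expressed ones was not tested, and the new calls depend on these lengths. For si-circ235-2 against si-circ235-1 the median after removal was -0.71 and 34 of the 43 genes were called, where 5826 of all genes were called, 2390 higher and 3436 lower. POMP stayed called there (-0.78), and PSMA5 (-0.42), PSMD14 (-0.04) and ADRM1 (-0.01) lost their calls. PSMF1 stayed called higher there, at 0.71 beside 1.30 without removal. With si-circ235-1 against NC the correlation with length was -0.27 across the 43 genes, and 11 of them were called after removal, 10 higher, while calls over all genes went from 847 to 1995, 1249 of them higher. The part of RNA quality or library preparation in the relation to length was not tested.

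**Figure D4:**
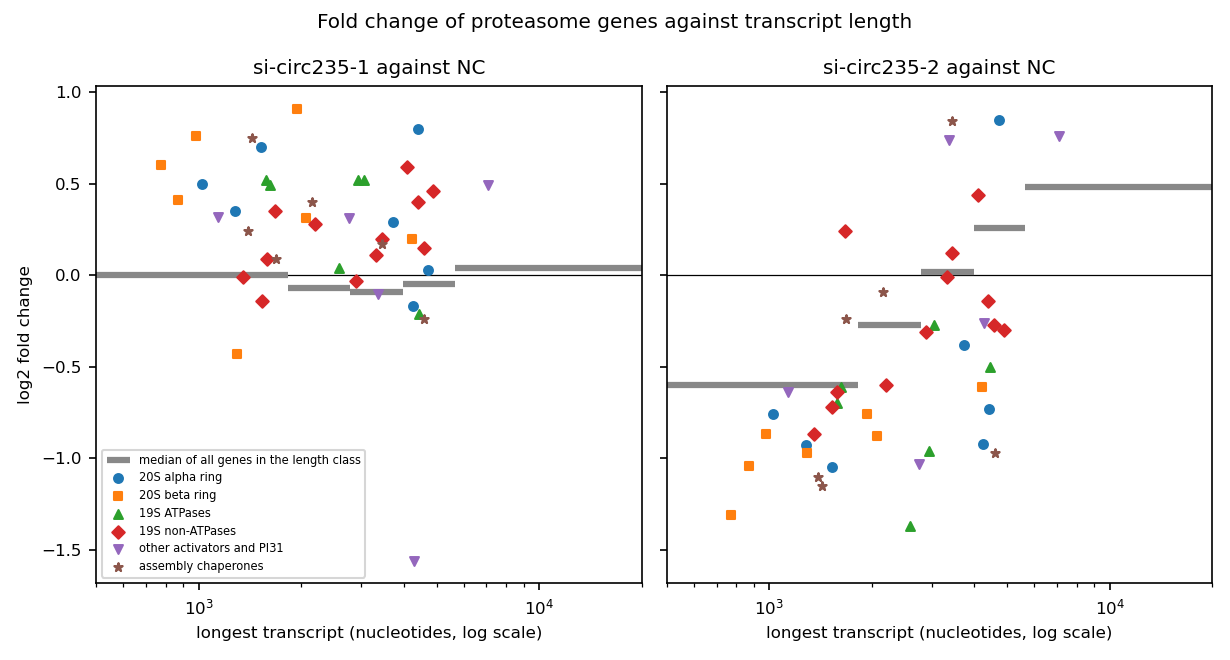
Log2 fold change (vertical axis) of the 43 genes against the length of their longest transcript in nucleotides (horizontal axis, log scale), for each siRNA against NC. Symbols mark the roles of the genes and grey bars are the medians of all genes tested in each length class. With si-circ235-2 the grey bars rise from -0.60 to 0.48, and most core subunits lie below the bar of their class.

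Of 42 other genes of the pathway, listed by function, 40 were tested. With si-circ235-2 against NC 16 of them were called, 9 higher and 7 lower, or 40% against 31.4% of all genes, and with si-circ235-1 against NC 3 were called, 1 higher and 2 lower, or 7.5%. In the 9-gene list of NFE2L1 and its partners, 5 were called higher with si-circ235-2, or 55.6% against 15.7% of all genes. None was called lower, and the median was 0.70. NFE2L1 itself (chr17:48048329-48061487) was at 77.4 and 94.4 CPM in NC, 106 and 76.1 CPM with si-circ235-1 and 232 and 223 CPM with si-circ235-2. Both si-circ235-2 libraries stood above the other 4, and the gene was 2.65-fold higher than in NC (log2 fold change 1.41 ± 0.21 SE, adjusted p = 0.00232 by edgeR). This call held in all 14 alternatives, with values of 1.14 to 1.65. DDI2 (1.18), the small MAF genes MAFG and MAFF (0.92 and 0.70) and SEL1L (0.84), part of a ubiquitin ligase complex of the endoplasmic reticulum, were called higher as well, and with length and GC content removed SEL1L lost its call. DDI2 then stood at 0.48 (adjusted p = 0.049 by edgeR) and was not called once a replicate block was added (adjusted p = 0.0669 by edgeR). NFE2L2, a relative of NFE2L1 that binds the same element, was not called (-0.38, adjusted p = 0.279 by edgeR). With si-circ235-1 none of the 9 genes was called by DESeq2 or in the reported edgeR fit, with 2 at an unadjusted p under 0.05. NFE2L1 had a value of 0.08 ± 0.21 there. With length and GC content removed, MAFF (0.87) and MAFG (0.52) were called higher with si-circ235-1 as well (adjusted p = 0.00918 and 0.0397 by edgeR). The other genes of the list were not called in that setting. Of the 14 proteasome genes with the element core in their promoter window, such as the 5 printed above, 7 were called lower with si-circ235-2. Another 2 were called higher and 5 in neither direction, and the median was -0.46. Over all 43 proteasome genes 24 were called lower, and over all genes 15.7%. The 43 include 6 genes without a promoter entry (PSMA7, PSMB1, PSMB6, PSMB7, PSMD4 and PSMG3), each called lower. The motif counts and the 24 of 43 are therefore not a like comparison. With the CCAAT box 10 of 18 were called lower, and with CCGGAAG 4 of 14. The transcript levels do not measure the processing or nuclear activity of the NFE2L1 protein.

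**Figure D5:**
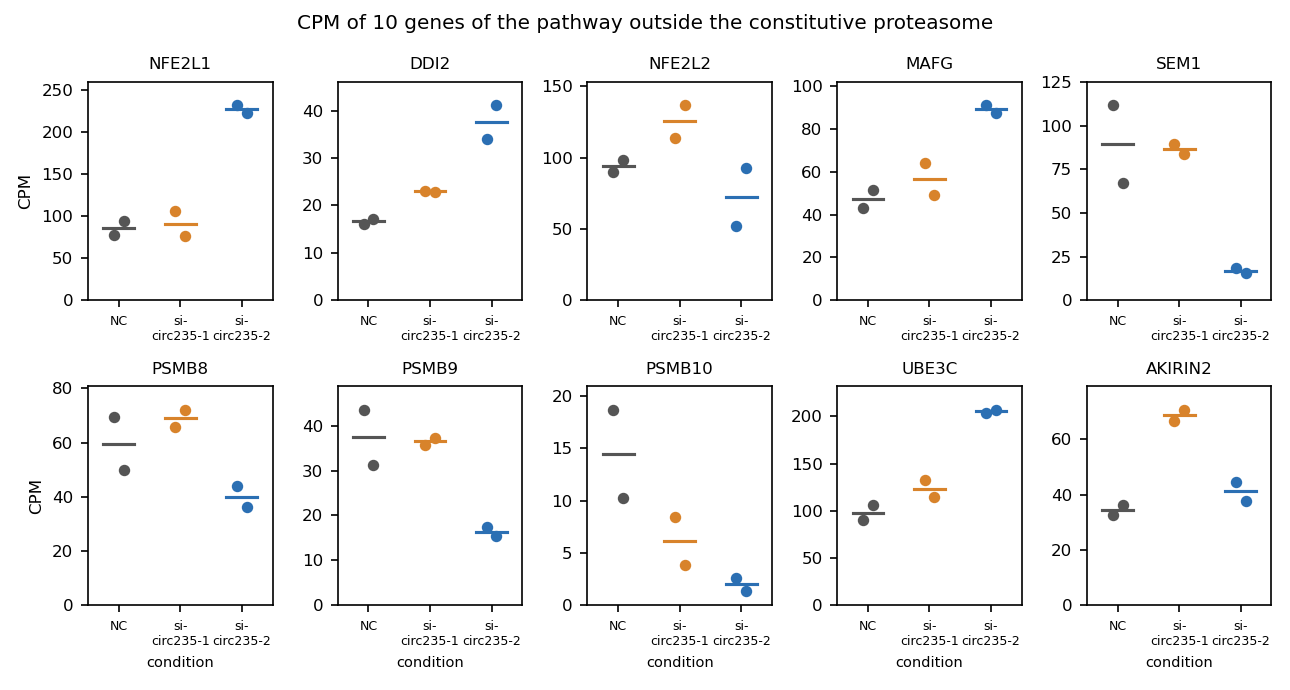
CPM (vertical axes, from 0) of 10 genes of the pathway outside the 43, in each library by condition. Points are libraries and lines are the means of 2 libraries. The si-circ235-2 points are the highest for NFE2L1, DDI2, MAFG and UBE3C and the lowest for SEM1, PSMB8, PSMB9 and PSMB10, and AKIRIN2 is highest with si-circ235-1.

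SEM1, the smallest subunit of the 19S cap and a binding partner of BRCA2, had a larger fall than any of the 43 genes, and with length and GC content removed it stood at -1.33, beside -1.56 for PSMC5. It was at 112 and 67.2 CPM in NC, 89.3 and 83.6 CPM with si-circ235-1 and 18.4 and 15.4 CPM with si-circ235-2, or 5.29-fold lower with si-circ235-2 (log2 fold change -2.40 ± 0.25 SE, adjusted p = 0.00175 by edgeR). The immunoproteasome subunits replace the proteolytic subunits of the core after interferon. PSMB10, which replaces PSMB7, was at 18.7 and 10.2 CPM in NC, 8.46 and 3.85 CPM with si-circ235-1 and 2.59 and 1.38 CPM with si-circ235-2. Its counts were 2.76% and 2.27% of those of PSMB7 in NC, 1.01% and 0.359% with si-circ235-1 and 0.732% and 0.53% with si-circ235-2, so the siRNAs overlapped below NC. The counts of PSMB8 were 20.1% and 21.6% of those of PSMB5, which it replaces, in NC, 34.6% and 30.3% with si-circ235-1 and 28% and 26.6% with si-circ235-2. PSMB10 and PSMB9 were called lower with si-circ235-2 (-2.87 ± 0.46 and -1.19 ± 0.23, adjusted p = 0.00275 and 0.00434 by edgeR), and PSMB8 was not (-0.57, adjusted p = 0.0611 by edgeR). The tissue-specific subunits PSMA8 and PSMB11 did not pass the filter on low counts. Of 10 tested interferon-stimulated genes, 1 was called higher and 2 lower (IFI6 and ISG15, -2.19 and -1.05) with si-circ235-2. The share called was 30% against 31.4% of all genes. With si-circ235-1 edgeR and DESeq2 called 0 of them, with 1 at an unadjusted p under 0.05.

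Of 11 listed genes for other cap parts and proteasome-bound factors, SEM1 among them, 3 were called higher with si-circ235-2, or 27.3% against 15.7% of all genes, and SEM1 was called lower. The 3 were those of the ubiquitin ligase UBE3C (1.07), the deubiquitinase USP14 (0.63) and the proteasome-binding protein ECPAS (0.62), with adjusted p-values of 0.00326, 0.0228 and 0.021 by edgeR. After length and GC content were removed UBE3C stayed called (0.44), USP14 had a value of 0.57 that was not called, and ECPAS had a value of -0.14 that was not called. AKIRIN2, which carries proteasomes into the nucleus, was at 32.6 and 36.2 CPM in NC and 66.7 and 70.7 CPM with si-circ235-1, where it was called higher (1.00 ± 0.19 SE, adjusted p = 0.0173 by edgeR), and with si-circ235-2 it was at 44.7 and 37.8 CPM and was not called. Of the genes that supply ubiquitin, UBB (-0.74) and the ribosomal fusion gene RPS27A (-1.21) were called lower with si-circ235-2. The shuttle UBQLN1 was called higher with si-circ235-2 (0.62), and UBQLN4 was called lower with si-circ235-1 (-0.77). The p97 list held 6 genes, for the ATPase that extracts ubiquitinated proteins for the proteasome and for its cofactors. Only NSFL1C was called with si-circ235-2, where it was lower (-1.09). This was 16.7% called lower, near the 15.7% of all genes. VCP, the ATPase itself, had a value of 0.00.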

How the data were processed

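The deposited table holds raw read counts by gene for 6 libraries, which the authors neither normalized nor split by strand. The submitters' processing notes name FastQC, cutadapt, STAR and hg38. The counter and its annotation are named in no source used here. Gene symbols, coordinates, overlaps and the longest transcript of each gene came from GENCODE release 29, in which 99.5% of the identifiers were found.

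Testing used edgeR 4.0.16 under R 4.3.3 (filterByExpr, TMM, 1 mean per condition, quasi-likelihood test, Benjamini-Hochberg adjustment, threshold 0.05), on all 6 libraries, with a biological coefficient of variation of 19.6%. The scripts were tested on simulated data with 200 genes changed. At a log2 change of 1, the fit recovered 21.4% of them for si-circ235-1 and 29.6% for si-circ235-2 against NC. At a log2 change of 2 it recovered 88.7% and 88.3%. A gene that was not called may therefore still have changed. Libraries held 15373992 to 19912893 counts. Alternatives were DESeq2 1.42.0, RLE factors or none in place of TMM, all genes without the count filter, a replicate block, the conditions compared alone, removal of length and GC trends (splines with 5 degrees of freedom) and each library left out.

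The 43 genes and the other lists were chosen with earlier results of these data known. Values per library are given for the proteolytic subunits, PSMD14, PSMD4, POMP, PSMD5, PSME1, PSME2, PSME3, PSME4, PSMF1 and, in each comparison, the 3 called genes with the largest rise and the 3 with the largest fall. Some genes of the other lists are counted but not reported here by name.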

Additional observations from a re-analysis of the deposited data

How the results depend on the processing

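Where si-circ235-1 was compared with NC, edgeR called 3 of the 43 genes, and 7 were called with DESeq2, 5 without the filter on low counts, 11 with length and GC trends removed, 7 with these trends removed and a replicate block, 6 in the conditions compared alone, and 0 to 4 with each library left out. Calls over all genes, 847 in the reported fit, were 1448, 1678, 1995, 1239 and 1642 in these settings and 0 to 1482 with each library left out. For the other genes of the pathway (3 called), the corresponding counts were 6 without the filter, 5 with the trends removed, 6 in the conditions compared alone and 0 to 6 with each library left out. With si-circ235-2 against NC, 27 genes were called, and 16 without TMM factors, 16 with trends removed and a replicate block, and 2 to 25 with each library left out. The median of -0.64 was -0.38 without TMM factors, -0.33 with trends removed, -0.33 with trends removed and a replicate block, and -0.79 to -0.49 with each library left out. The pathway genes (16 called) gave 5 to 17 calls with each library left out. In si-circ235-2 against si-circ235-1, the median of -0.76 was -0.43 without TMM factors and -0.88 to -0.70 with each library left out, and the pathway genes (27 called) gave 13 to 27. The cause of these shifts was not tested.

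With length and GC trends removed, the direction turned, among results called in either fit, for ADRM1 (0.14, and 0.13 with a replicate block), ECPAS (-0.14 and -0.14), FAF1 (-0.67 and -0.68) and FAF2 (-0.41) in si-circ235-2 against NC, and for NPLOC4 (-0.49 and -0.49) and FAF2 (-0.42 and -0.42) in si-circ235-2 against si-circ235-1. Values called in neither fit also changed sign, such as PSMD14 (-0.30 to 0.38) and PSMD11 (0.44 to -0.06) in si-circ235-2 against NC.

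The labels number the replicates, but deviations of same-numbered libraries correlated by -0.09, 0.15 and 0.14, so the numbers were not taken to pair them. With a replicate block 2, 28 and 30 of the 43 genes were called in the 3 comparisons, where 3, 27 and 29 were called without the block. The p-values measure the spread between 2 libraries per condition, and a fit without 1 library assumes that the remaining one varies like the others.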
